A study of Homo sapiens with 50 samples.

Results

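A549 cells, a human lung adenocarcinoma line, were compared 1.5 h after the addition of 1 uM compound 16 and 1.5 h after DMSO, the vehicle, in medium without serine. The arrays were chosen by their titles, which give cell line, medium, time and treatment: 3 compound 16 arrays and 3 DMSO arrays, 6 of the 50 in the series. All cells had grown in RPMI and were moved 24 h before the addition to BME plus non-essential amino acids, which either held or lacked serine, so both arms had lacked serine for a day when compound or vehicle was added. For comparison, the same arms were used at 0 h, 6 h and 24 h without serine (3 arrays each), and at 1.5 h with serine (3 compound 16 arrays and 2 DMSO arrays). Arrays with serine at other times are given only as values. The labels name no genetic change to the line, and 1 line at 1 dose was tested.

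The series title names activation of PKM and a resulting need for external serine. PKM is a pyruvate kinase, the enzyme that ends glycolysis, and cells make serine from 3-phosphoglycerate, an intermediate upstream of that step. When an amino acid runs short, uncharged tRNAs activate the kinase GCN2, which phosphorylates eIF2alpha, and the transcription factor ATF4 is then translated and switches on stress and amino acid genes, DDIT3 and ATF3 among them. Immediate early genes such as JUN are a separate, transient class that many stimuli switch on without new protein synthesis. The comparison asks which transcripts had moved 1.5 h after the compound was added, and whether the enzymes of serine synthesis were among them.

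The values are deposited log2 signals of Affymetrix HG-U219 arrays, normalized by the authors with RMA, and a difference of 1 on this scale is a 2-fold change. Each gene is represented by its brightest probe set. Differences are compound 16 minus DMSO with a standard error (SE), from 1 limma fit of all 50 arrays over 18239 genes, and a gene is called where its Benjamini-Hochberg adjusted p is under 0.05. Separate cultures are not named for the arrays of a group in the labels, so p-values measure the spread between arrays, which may be technical. The title numbers run from 51 to 53 for compound 16 and from 54 to 56 for DMSO, so a drift in that order cannot be told apart from the compound.

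The marker genes fit the labelled line. All 9 epithelial and A549 markers were brighter than the median gene, at 9.73 to 14.4, with AKR1B10, an aldo-keto reductase, the brightest. The 7 fibroblast markers lay between 4.15 and 4.83 and the 5 endothelial markers between 4.29 and 5.08, all under the median gene. Of 5 leukocyte markers only CD68, at 7.59, was above it. No marker of these 4 lists was called, and the mean level of each list overlapped between the arms. The difference between the 3′ and 5′ ACTB probe sets, a sign of RNA integrity, was 1.08, 1.17 and 1.14 in compound 16 arrays and 1.11, 1.18 and 1.33 in DMSO arrays (exact permutation test, two-sided, p = 0.4; the smallest p that 3 against 3 can give is 0.1). Taking 2 arrays at a time, the SD of their differences over genes was 0.206 to 0.229 across the arms, against 0.208 to 0.228 within them.

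At 1.5 h without serine, 15 of 18239 genes were called (0.0822%). Of these, 14 rose with compound 16 (0.0768% of the genes tested) and 1 fell (0.00548%). The rises ran from 0.25 to 1.19, and DDIT3 alone passed a 2-fold change, at 2.28-fold. The genes that rose include stress response transcription factors (DDIT3, ATF3), a secreted stress cytokine (GDF15), an inhibitor of mTORC1 (DDIT4), an inhibitor of EGFR (ERRFI1) and several early transcriptional regulators (JUN, KLF2, HES1, BHLHE40, ID1). None of the enzymes that make serine was among the 15. In all 15 genes, the 3 compound 16 arrays and the 3 DMSO arrays did not overlap. Across all genes, 940 did not overlap with compound 16 higher (5.15%) and 932 with compound 16 lower (5.11%). The signal is of bulk RNA, so more RNA in every cell and a change in only some of the cells cannot be told apart. The count rests on a spread shared over the whole series: limma on the 6 arrays alone called 0 genes, with 1063 at an unadjusted p under 0.05 and a smallest adjusted p of 0.112, against 808 at that level in the fit of all arrays. In that fit the arms at 0 h without serine, with 0 calls, had 1318 genes at that level. The 808 are thus no excess over a comparison without calls. Leaving out compound 16 arrays 51, 52 or 53 left 7, 8 and 7 calls, and leaving out DMSO arrays 54, 55 or 56 left 6, 8 and 8. DDIT3, DDIT4, ERRFI1, GADD45B, GDF15 and TSC22D3 were called in each of these 6 fits.

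**Figure D1:**
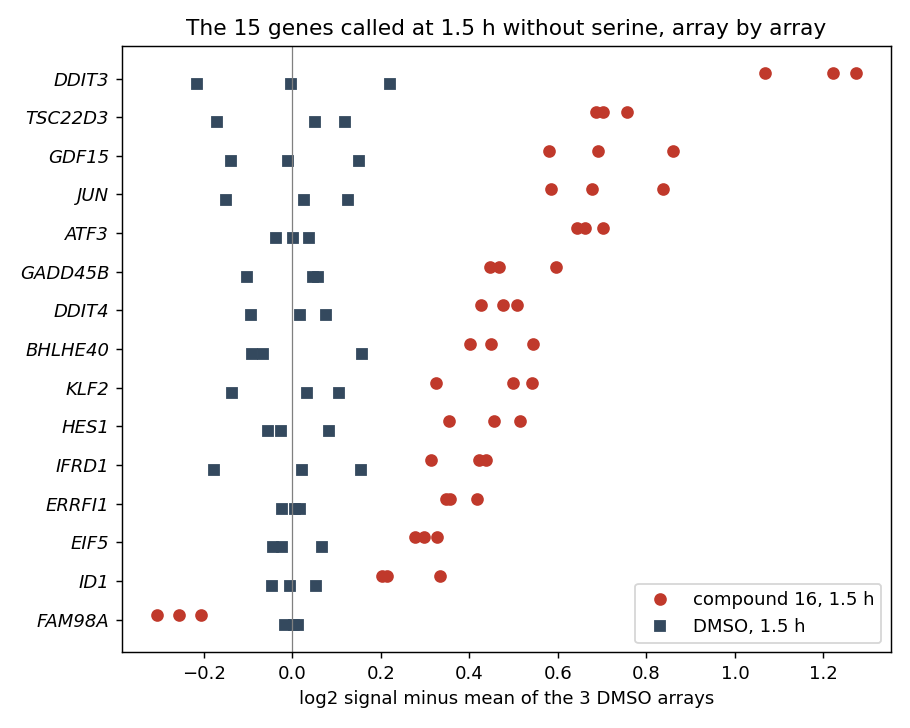
Signal of each of the 15 called genes in the 3 compound 16 arrays (circles) and the 3 DMSO arrays (squares) at 1.5 h without serine, as the log2 signal minus the mean of the 3 DMSO arrays. Each gene's circles lie to the right of its squares, apart from FAM98A, whose circles lie to the left.

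DDIT3, also called CHOP, is a stress-induced transcription factor that pairs with C/EBP proteins. Its log2 signal was 8.37, 8.22 and 8.43 in compound 16 arrays, against 7.37, 7.15 and 6.94 in DMSO arrays. The lowest compound 16 array stood 0.848 above the highest DMSO array. The difference was 1.19 ± 0.19 (SE, n = 3 each; limma adjusted p = 0.00146), with a 95% interval of 0.79 to 1.58. A second DDIT3 probe set rose by 1.55 ± 0.15 (limma over all probe sets, adjusted p = 4.17e-08).

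ATF3 is a stress-inducible transcription factor of the ATF/CREB family. It had 9.04, 9.06 and 9.10 in compound 16 arrays and 8.40, 8.36 and 8.44 in DMSO arrays. The arrays of each arm were close to each other, and the arms stood 0.606 apart. The difference was 0.67 ± 0.14 (n = 3 each; limma adjusted p = 0.0371). Of its 7 probe sets, 1 dim one had a difference of -0.01.

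GDF15 is a secreted cytokine of the TGF-beta superfamily that cells release under metabolic and translational stress. It had 10.76, 10.87 and 11.04 in compound 16 arrays, against 10.17, 10.33 and 10.04 in DMSO arrays. The arms were separated by 0.43. It rose by 0.71 ± 0.08, or 1.64-fold (n = 3 each; limma adjusted p = 2.44e-06).

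DDIT4, or REDD1, restrains the growth kinase mTORC1. It was a bright gene in both arms, with 12.15, 12.10 and 12.18 in compound 16 arrays and 11.69, 11.75 and 11.58 in DMSO arrays. No array crossed between the arms. The rise was 0.47 ± 0.07, or 1.39-fold (n = 3 each; limma adjusted p = 0.000388).

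TSC22D3, or GILZ, is a leucine zipper protein known as a target of the glucocorticoid receptor and of FOXO factors. It had 9.40, 9.34 and 9.33 in compound 16 arrays and 8.69, 8.76 and 8.47 in DMSO arrays. The arms did not overlap, and the SD was 0.0367 over the compound 16 arrays and 0.152 over the DMSO arrays. It rose by 0.71 ± 0.08 (n = 3 each; limma adjusted p = 2.44e-06), the smallest adjusted p of all genes, shared with GDF15.

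ERRFI1, or MIG6, binds the EGF receptor and blocks its kinase. It had 11.88, 11.95 and 11.89 in compound 16 arrays and 11.51, 11.54 and 11.55 in DMSO arrays. The difference was small but the arrays were tight, at 0.37 ± 0.05 (n = 3 each; limma adjusted p = 7.6e-05). GADD45B, which activates a kinase upstream of p38 and JNK, had 10.69, 10.84 and 10.71 in compound 16 arrays and 10.14, 10.29 and 10.30 in DMSO arrays. Its rise was 0.50 ± 0.08 (n = 3 each; limma adjusted p = 0.000388), while 1 dimmer GADD45B probe set had a difference of -0.23.

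Among the early transcriptional regulators, the rises ran from 0.25 for ID1 to 0.70 for JUN. JUN, a subunit of AP-1, had 8.21, 8.11 and 8.37 in compound 16 arrays and 7.38, 7.55 and 7.66 in DMSO arrays. Its rise was 0.70 ± 0.15 (limma adjusted p = 0.0462, n = 3 each). KLF2, a zinc finger factor, had 9.82, 10.00 and 10.04 in compound 16 arrays and 9.60, 9.53 and 9.36 in DMSO arrays, and rose by 0.45 ± 0.09. HES1, the repressor that Notch signalling induces, had 9.29, 9.45 and 9.39 in compound 16 arrays and 8.91, 8.88 and 9.01 in DMSO arrays, and rose by 0.44 ± 0.09. Both carried a limma adjusted p of 0.0371. BHLHE40, a repressor tied to the circadian clock and to hypoxia, had 9.57, 9.62 and 9.71 in compound 16 arrays and 9.10, 9.32 and 9.07 in DMSO arrays, a rise of 0.46 ± 0.09. ID1, which binds bHLH factors and keeps them off DNA, was bright in both arms, with 12.84, 12.83 and 12.96 in compound 16 arrays and 12.68, 12.62 and 12.58 in DMSO arrays. Its rise of 0.25 ± 0.05 was the smallest of the 14. Other probe sets differed by 0.17 and 0.16 for ID1, by 0.28 to 0.48 for JUN and by 0.01 to 0.40 for HES1. The other KLF2 probe set differed by 0.39.

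IFRD1, a transcriptional co-regulator, had 9.71, 9.69 and 9.58 in compound 16 arrays and 9.29, 9.09 and 9.43 in DMSO arrays. The gap between the arms was 0.158, and the rise was 0.39 ± 0.08 (n = 3 each; limma adjusted p = 0.0208). EIF5, the initiation factor that makes eIF2 hydrolyse its GTP, had 11.74, 11.69 and 11.71 in compound 16 arrays and 11.39, 11.37 and 11.48 in DMSO arrays. It rose by 0.30 ± 0.06 (n = 3 each; limma adjusted p = 0.0462), and its 7 probe sets ranged from -0.01 to 0.30. The gene that fell, FAM98A, had 10.21, 10.26 and 10.16 in compound 16 arrays and 10.48, 10.45 and 10.47 in DMSO arrays. Its difference was -0.26 ± 0.05 (n = 3 each; limma adjusted p = 0.0339), and 1 of its other probe sets was at 0.08. Tested probe set by probe set, 8 of 45253 were called, in 6 genes, and each of these 6 is among the 15. With the mean of a gene's probe sets in place of the brightest, the differences were smaller by more than 1.5 times for ATF3 (0.41), GADD45B (0.31), HES1 (0.27), EIF5 (0.17) and FAM98A (-0.15), and of these ATF3 alone was still called.

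Promoters of all 15 called genes were found in RefSeq (assembly GRCh38.p14), as 1 window a gene from 250 bases before to 50 bases after a start. Other starts of a gene were not searched. Both strands were searched for 4 motifs known from the pathways named above, where N is any base. They were TGATGNAAN, the C/EBP-ATF composite site that ATF4 binds, and TGACGTCA, the cyclic AMP response element of ATF and CREB factors. The others were TGANTCA, a loose form of the AP-1 site that allows any middle base, and TGTTTAC, a FOXO site. Each of the 4 motifs was present in 1 of the 15 windows. Among 27305 RefSeq promoters, 3.67% held TGATGNAAN, 1.98% TGACGTCA, 7.76% TGANTCA and 3.41% TGTTTAC. Among the 14492 promoters of measured genes, the shares were 2.55%, 2.63%, 5.73% and 2.48%. A match in 1 of 15 thus says little about the genes as a group. A match is a string of letters in this window and not a shown binding site. The 4 windows with a match are shown because they belong to genes the results turn on, 5′ to 3′ on the gene's strand, with the match in capitals. They are ATF3 (chr1:212565157-212565456, plus strand, TGATGNAAN match at -191 to -183 from the start), DDIT3 (chr12:57520465-57520764, minus strand, TGANTCA match at -241 to -235), GDF15 (chr19:18385908-18386207, plus strand, TGTTTAC at -96 to -90) and IFRD1 (chr7:112450258-112450557, plus strand, TGACGTCA at -100 to -93).
ATF3: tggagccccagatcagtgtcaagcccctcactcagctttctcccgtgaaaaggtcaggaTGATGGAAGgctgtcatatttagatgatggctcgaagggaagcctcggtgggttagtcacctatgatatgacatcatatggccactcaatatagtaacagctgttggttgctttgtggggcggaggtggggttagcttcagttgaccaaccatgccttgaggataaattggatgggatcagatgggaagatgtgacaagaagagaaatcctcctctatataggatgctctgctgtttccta
DDIT3: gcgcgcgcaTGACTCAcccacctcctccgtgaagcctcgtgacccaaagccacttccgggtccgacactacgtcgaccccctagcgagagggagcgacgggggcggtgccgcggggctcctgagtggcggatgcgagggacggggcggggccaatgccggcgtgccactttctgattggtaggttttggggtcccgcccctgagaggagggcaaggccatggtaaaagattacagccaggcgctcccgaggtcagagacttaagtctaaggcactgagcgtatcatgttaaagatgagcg
GDF15: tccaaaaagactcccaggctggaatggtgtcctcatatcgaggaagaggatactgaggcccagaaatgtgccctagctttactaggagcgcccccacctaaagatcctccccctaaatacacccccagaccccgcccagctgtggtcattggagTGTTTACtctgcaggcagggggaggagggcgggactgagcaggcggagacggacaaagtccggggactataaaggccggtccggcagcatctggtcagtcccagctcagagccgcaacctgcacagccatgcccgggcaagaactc
IFRD1: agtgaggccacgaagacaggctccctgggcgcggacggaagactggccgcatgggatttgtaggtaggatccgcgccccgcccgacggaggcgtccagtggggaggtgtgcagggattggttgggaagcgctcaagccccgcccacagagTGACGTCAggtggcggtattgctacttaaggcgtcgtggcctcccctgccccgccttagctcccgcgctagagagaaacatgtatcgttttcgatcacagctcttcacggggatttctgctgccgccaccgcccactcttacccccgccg

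Among the 22 measured genes of the amino acid response that ATF4 drives, 4 rose (GDF15, DDIT4, DDIT3 and ATF3) and 0 fell, where 0.0768% of all genes rose. Of the 4, DDIT3, GDF15 and DDIT4 are marker genes given with the experiment. The list was chosen with earlier results of these data known, so this count is not independent support. The list's median difference was 0.25, against -0.00 over all genes, and 20 of 22 had a positive difference, against 48.6% of all genes. In 15 of the 22, the arrays of the arms did not overlap, each time with compound 16 higher, as in 5.15% of all genes. Several known ATF4 targets lay above their DMSO arrays without passing the test. TRIB3, a pseudokinase, had 10.48, 10.43 and 10.54 in compound 16 arrays and 10.17, 10.27 and 10.02 in DMSO arrays, a difference of 0.33 ± 0.07 (limma adjusted p = 0.0639, n = 3 each). STC2, a secreted glycoprotein, had 7.70, 7.43 and 7.59 in compound 16 arrays and 6.66, 7.07 and 7.11 in DMSO arrays, a difference of 0.63 ± 0.17 (limma adjusted p = 0.415, n = 3 each). VEGFA, the angiogenic growth factor, differed by 0.31 ± 0.08 (limma adjusted p = 0.217). ASNS, asparagine synthetase and a standard ATF4 target, differed by 0.13 ± 0.07. The transcript of ATF4 itself had 13.33, 13.30 and 13.36 in compound 16 arrays and 13.21, 13.20 and 13.18 in DMSO arrays, a difference of 0.13 ± 0.05 with an adjusted p of 1 in limma. At the other end of the list, NIBAN1 differed by -0.15 ± 0.16.

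The enzymes of serine and one-carbon metabolism did not pass the test at this time. PHGDH, the first enzyme of serine synthesis, had 9.92, 9.95 and 10.10 in compound 16 arrays and 9.92, 9.98 and 10.00 in DMSO arrays, a difference of 0.02 ± 0.08. The 2 sets of arrays overlapped. PSAT1, the transaminase of the pathway, differed by -0.05 ± 0.08, and PSPH, the phosphatase of its last step, by 0.02 ± 0.06. The 95% intervals were -0.14 to 0.18 for PHGDH, -0.22 to 0.11 for PSAT1 and -0.10 to 0.15 for PSPH. SHMT2 and MTHFD2, mitochondrial enzymes that pass serine's carbon to folate, differed by 0.07 ± 0.07 and 0.09 ± 0.06. Of 16 measured one-carbon and glycine genes, 19 aminoacyl-tRNA synthetases and 16 amino acid transporters, 0 were called by limma. Their medians were -0.01, -0.02 and 0.03, and 0, 0 and 2 of them had an unadjusted p under 0.05, beside 808 of all 18239 genes. PKM, the enzyme named in the series title, differed by 0.06 ± 0.07, and 0 of 21 measured glycolysis genes were called, with 0 at an unadjusted p under 0.05. TXNIP, which responds to glucose phosphates, differed by 0.24 ± 0.23, with overlapping arrays.

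Immediate early genes also lay mostly above 0. Of 24 measured AP-1 and immediate early genes, 2 rose (JUN and KLF2) and 0 fell, with a median of 0.22, where 0.0768% of all genes rose. In 11 of the 24 the compound 16 arrays all lay above the DMSO arrays, as in 5.15% of all genes. Among the rest of the list, FOS had 7.86, 8.01 and 8.19 in compound 16 arrays and 7.42, 7.56 and 7.73 in DMSO arrays, and EGR1 7.32, 7.77 and 7.79 in compound 16 arrays and 6.70, 7.08 and 7.16 in DMSO arrays. The differences were 0.45 ± 0.14 and 0.65 ± 0.21, with limma adjusted p of 0.752 and 0.828; both genes were chosen after their values were seen. Of 14 feedback inhibitors of MAP kinases, 1 rose (ERRFI1), beside the same 0.0768% of all genes. The differences of all 14 were positive, against 48.6% of all genes, with a median of 0.17. DUSP1, a phosphatase of p38, JNK and ERK, had 9.80, 9.91 and 10.09 in compound 16 arrays and 9.45, 9.67 and 9.50 in DMSO arrays. Its difference was 0.39 ± 0.10 (limma adjusted p = 0.22). The lists of this paragraph were also chosen with earlier results of these data known, so their counts are not independent support.

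The 13 inflammatory genes held 0 calls, with a median of 0.18 and 3 at an unadjusted p under 0.05. Of all 18239 genes, 0.0768% rose and 808 had an unadjusted limma p under 0.05. Of 19 FOXO targets, 2 rose (TSC22D3 and KLF2), with a median of 0.13, and of 14 glucocorticoid targets, 2 rose (TSC22D3 and ERRFI1), with a median of 0.04. In 5 of these 14 the compound 16 arrays all lay above the DMSO arrays, as in 5.15% of all genes. In 1 they all lay under them, as in 5.11% of all genes, and 4 had an unadjusted p under 0.05. Of 11 brakes on mTORC1, only DDIT4 rose, and the list's median was -0.00. SESN2, a leucine sensor that restrains mTORC1, differed by 0.33 ± 0.12 without passing. GDF15 was the 1 call among 18 p53 targets, and the p53 target BBC3, a killer BH3-only protein, differed by 0.33 ± 0.08 (limma adjusted p = 0.122). BHLHE40 was the 1 call in both the hypoxia list of 13 and the clock list of 14. These lists share members, so the same gene is counted in several of them. TSC22D3, DDIT4 and GDF15 are marker genes given with the experiment. The lists were chosen with earlier results of these data known, so their counts are not independent support.

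Among 14 heat shock genes 0 were called by limma, with 3 at an unadjusted p under 0.05, beside 808 of all 18239 genes. Their median was -0.09, and in 6 of them the compound 16 arrays all lay under the DMSO arrays, as in 5.11% of all genes. HSPA1A and HSPA1B, near-identical genes of HSP70 whose probes may read both, differed by -0.11 ± 0.05 and -0.18 ± 0.06. The chaperones of the endoplasmic reticulum, which the unfolded protein response induces, also held 0 calls of 18, with 0 at an unadjusted p under 0.05 and a median of -0.00. The lists of eIF2alpha control (14 genes), NRF2 targets (14), cholesterol synthesis (16), S phase (18) and mitosis (18) each held 0 limma calls, with 1, 2, 0, 0 and 0 at an unadjusted p under 0.05. In the first of these, PPP1R15A, the phosphatase subunit GADD34 that reverses eIF2alpha phosphorylation, differed by 0.37 ± 0.14.

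**Figure D2:**
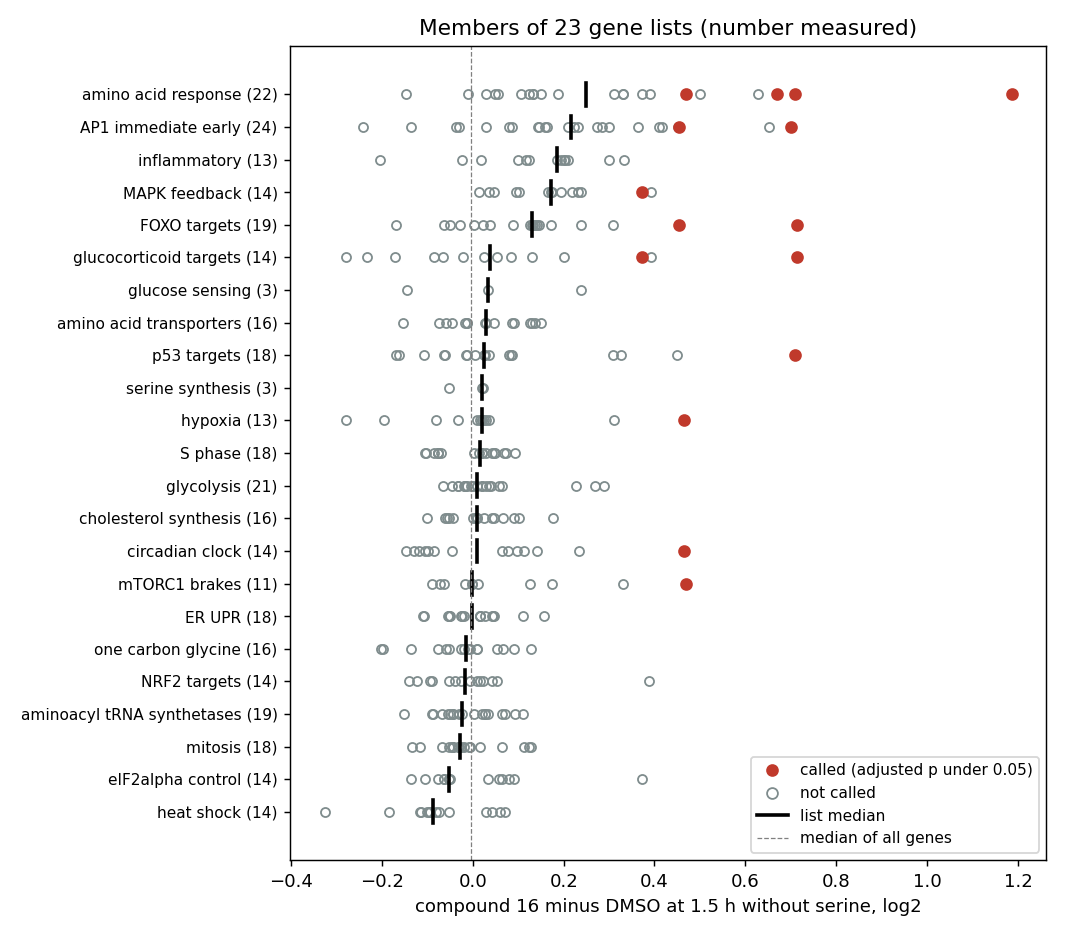
Differences, compound 16 minus DMSO at 1.5 h without serine (log2), of the measured members of 23 gene lists, with called genes as filled red points, the others as open points, the list median as a black bar and the median of all genes as a dashed line. The amino acid response (median 0.25) and the AP-1 and immediate early genes (0.22) lie farthest to the right, and heat shock (-0.09) farthest to the left.

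Other genes had separate arrays and a small p without being called. PMAIP1, the BH3-only protein NOXA, had 9.89, 9.78 and 9.80 in compound 16 arrays and 9.28, 9.52 and 9.35 in DMSO arrays, a difference of 0.44 ± 0.11 (limma adjusted p = 0.22, n = 3 each). GADD45A, a relative of GADD45B, differed by 0.31 ± 0.07. PDE4B, which degrades cyclic AMP, had 9.70, 9.71 and 9.78 in compound 16 arrays and 9.29, 9.38 and 9.59 in DMSO arrays, a difference of 0.31 ± 0.07 with a limma adjusted p of 0.0653. PTGS2, or cyclooxygenase-2, differed by 0.27 ± 0.07, and UBAP1, a subunit of the ESCRT-I sorting complex, by 0.23 ± 0.05. In the other direction, GEMIN6, of the SMN complex that assembles splicing particles, had 9.42, 9.40 and 9.38 in compound 16 arrays and 9.63, 9.63 and 9.56 in DMSO arrays, a difference of -0.21 ± 0.05. DDAH1, which breaks down methylated arginine, differed by -0.30 ± 0.07, and TNFRSF10D, a decoy receptor for TRAIL, by -0.34 ± 0.09. The 10 genes named by this rule in each direction had limma adjusted p of 0.0639 to 0.536.

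With serine, compound 16 called 0 genes at 1.5 h by limma (0%), with 614 at an unadjusted p under 0.05 and a smallest adjusted p of 0.195 (3 compound 16 arrays against 2 DMSO arrays). The 15 genes had differences of -0.33 to 0.14 there. For GDF15 the with-serine arrays stood at 9.73, 9.62 and 9.70 for compound 16 and 9.68 and 9.80 for DMSO. For TSC22D3 they were 8.24, 8.32 and 8.36 for compound 16 and 8.40 and 8.31 for DMSO, and for DDIT4 11.27, 11.11 and 11.27 for compound 16 and 11.39 and 11.25 for DMSO. The arms overlapped in all 3 genes. For DDIT3 the compound 16 arrays with serine scattered widely, at 5.46, 6.32 and 5.76, around the DMSO arrays at 5.82 and 5.93. These values are of 1.5 h only. At 24 h with serine, DDIT4 was at 11.52, 11.52 and 11.49 in compound 16 arrays, against 10.62, 10.92 and 10.71 in DMSO arrays. TSC22D3 was then at 8.484, 8.677 and 8.694, against 8.053, 8.185 and 8.134, and GDF15 at 10.44, 10.31 and 10.22, against 10.15, 10.18 and 9.918. DDIT3 stood at 7.662, 7.474 and 7.414 in these compound 16 arrays, against 6.428, 6.36 and 6.625 in the DMSO arrays. The effect with serine at 24 h was not tested.

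At 1.5 h the effects differed between media in 3 of the 15 genes, which were the only calls of that test (3 of 18239, 0.0164%). The effect without serine minus the effect with serine was 0.77 ± 0.12 for TSC22D3 and 0.76 ± 0.12 for GDF15 (limma adjusted p = 0.00363 each), and 0.57 ± 0.11 for DDIT4 (limma adjusted p = 0.0293). The 95% interval was 0.52 to 1.01 for TSC22D3, 0.51 to 1.02 for GDF15 and 0.36 to 0.79 for DDIT4. For DDIT3 the difference was larger, at 1.22 ± 0.29 with an interval of 0.63 to 1.81, but its limma adjusted p was 0.232. The second DDIT3 probe set was not tested on its own for this difference. JUN, at 1.03 ± 0.22, and GADD45B, at 0.54 ± 0.11, had an adjusted p of 0.0938. KLF2, at 0.31 ± 0.14, had an interval of 0.03 to 0.60, the one that came closest to 0. Each of the 15 differed between media in the direction of its effect, at an unadjusted p under 0.05, but these genes were picked for their effect without serine, which enters the difference. Without DMSO array 49, with serine, GDF15 was the only call, and without DMSO array 50 TSC22D3 was the only one. Limma on the 11 arrays at 1.5 h alone called 0, with 1062 at an unadjusted p under 0.05.

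**Figure D3:**
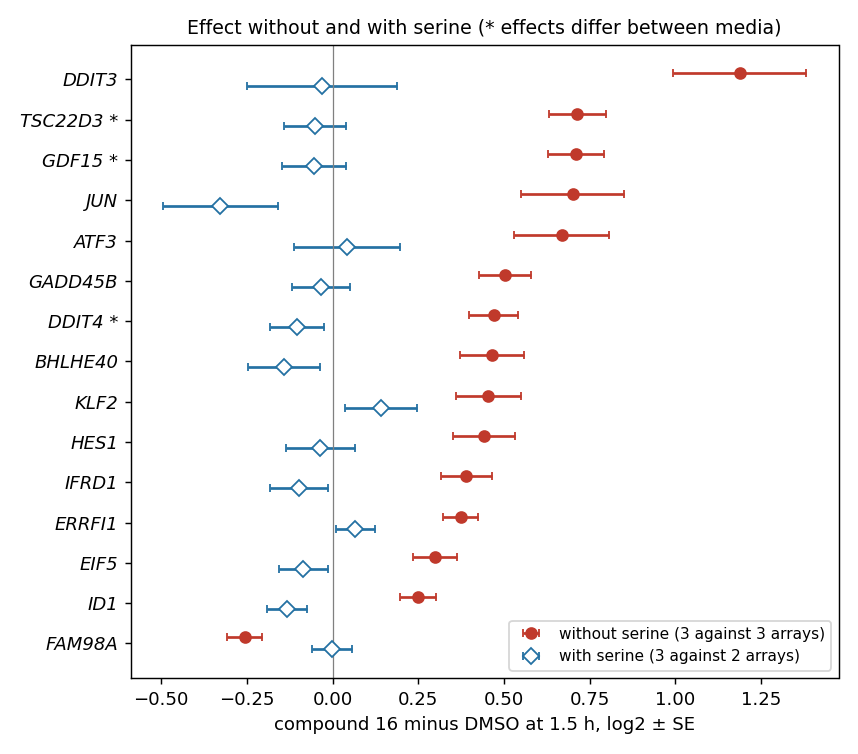
Effect of compound 16 (compound 16 minus DMSO, log2, with the SE of the limma fit as bars) at 1.5 h on the 15 genes without serine (filled circles, 3 against 3 arrays) and with serine (open diamonds, 3 against 2 arrays). Asterisks mark DDIT4, GDF15 and TSC22D3, whose effects differed between media at an adjusted p under 0.05, and the effects with serine lie between -0.33 and 0.14.

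At 0 h without serine, when the compound had only been added, limma called 0 genes (0%), with 1318 at an unadjusted p under 0.05 and a smallest adjusted p of 0.177. The differences of the 15 genes lay between -0.09 and 0.14 there. The effect at 1.5 h was larger than that at 0 h for GDF15 by 0.72 ± 0.12, for TSC22D3 by 0.69 ± 0.12, for DDIT4 by 0.52 ± 0.10 and for ERRFI1 by 0.41 ± 0.07 (limma adjusted p = 0.00735, 0.00759, 0.0412 and 0.0132). These were the 4 calls of the test (0.0219%). The count was 0 without compound 16 array 16 at 0 h and 9 without array 17; it was 2 without compound 16 array 18 or DMSO array 19 at 0 h, or without DMSO array 54 or 56 at 1.5 h.

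The DMSO arm also had other levels at 1.5 h than at 0 h, given here as values. In DMSO arrays without serine, ATF3 was at 8.40, 8.36 and 8.44 at 1.5 h, against 6.53, 6.29 and 6.22 at 0 h, a difference of 2.05 ± 0.14. In compound 16 arrays the same step was 2.62, so a large step of ATF3 was present with vehicle alone. DDIT3 had a step of 1.05 ± 0.19 with DMSO and 2.27 with compound 16. GDF15 had a step of -0.33 ± 0.08 with DMSO and 0.39 with compound 16, and KLF2 one of -0.29 ± 0.09 with DMSO and 0.09 with compound 16. In GDF15 and KLF2 the DMSO level was thus lower at 1.5 h than at 0 h, and the compound 16 level was not. DDIT4, ID1 and GADD45B also had a step with DMSO, of 0.50 ± 0.07, 0.51 ± 0.05 and 0.44 ± 0.08. With compound 16 their steps were 1.02, 0.77 and 0.91. For the other called genes the DMSO steps ran from -0.15 for EIF5 to 0.21 for TSC22D3. Arrays of different times also differ in title number block, so a shift between blocks cannot be told apart from time, while it cancels in the difference between arms of a time.

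**Figure D4:**
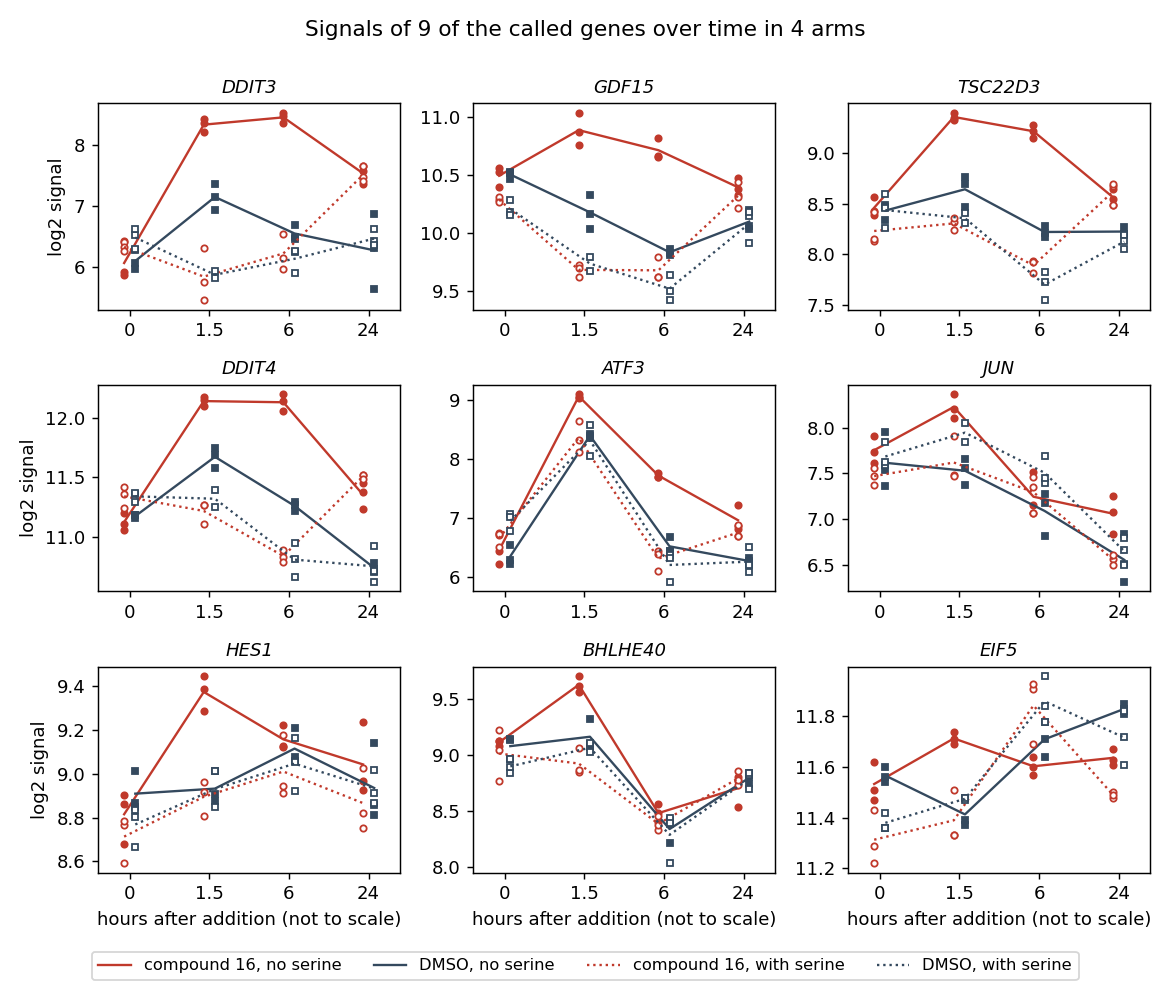
Signals (log2) of 9 of the 15 called genes at 0, 1.5, 6 and 24 h after addition, with points for arrays and lines through group means, for compound 16 and DMSO without serine (filled red circles and filled dark squares, solid lines) and with serine (open red circles and open dark squares, dotted lines). ATF3 stands higher at 1.5 h than at 0 h in each of the 4 arms, while DDIT3 and DDIT4 stand highest in compound 16 arrays without serine at 1.5 h and 6 h.

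At 6 h without serine 496 genes were called for compound 16 (2.72%) and at 24 h 1287 (7.06%), on other arrays than those at 1.5 h. Of the 15 early genes, 9 were also called at 6 h, which is 60% of the early list and 1.81% of the 6 h list, and all 9 had the same sign. At 24 h 9 were called as well, 60% of the early list and 0.699% of the 24 h list, and 7 had the same sign, while GADD45B and ID1 had the opposite one. Both shares of the early list stand far above the 2.72% and 7.06% of all genes, and the early list had already been chosen for an effect of the same compound.

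DDIT3 was at 8.48, 8.54 and 8.36 in compound 16 arrays at 6 h, against 6.70, 6.46 and 6.50 in DMSO arrays. Its effect was 1.91 ± 0.19 at 6 h, against 1.19 at 1.5 h, but the difference of 0.72 ± 0.28 did not pass the test (limma adjusted p = 0.401). The second DDIT3 probe set was not tested on its own for this difference. The compound 16 level was close to that at 1.5 h, and the DMSO level was lower. The effects on TSC22D3 (1.00 ± 0.08 at 6 h), GDF15 (0.88 ± 0.08) and ATF3 (1.20 ± 0.14) did not differ from those at 1.5 h past the threshold either. The effect was larger at 6 h than at 1.5 h for DDIT4, by 0.40 ± 0.10 (limma adjusted p = 0.0491), and for IFRD1, by 0.64 ± 0.11 (limma adjusted p = 0.000365). IFRD1 reached 10.28, 10.29 and 10.28 in compound 16 arrays at 6 h, against 9.33, 9.25 and 9.17 in DMSO arrays. For EIF5 the effect was lower at 6 h, by 0.41 on the log2 scale (-0.41 ± 0.09, limma adjusted p = 0.0169), and it had a negative sign at 6 h, at -0.11 ± 0.06.

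A second set of early genes had small effects at 6 h. HES1 differed by 0.04 ± 0.09 then, KLF2 by 0.03 ± 0.09, BHLHE40 by 0.14 ± 0.09 and JUN by 0.16 ± 0.15. At 6 h, JUN was at 7.15, 7.51 and 7.07 in compound 16 arrays and 6.82, 7.18 and 7.27 in DMSO arrays, and these overlapped. At 24 h JUN was called again, with an effect of 0.51 ± 0.15 (limma adjusted p = 0.0292), which did not differ from that at 1.5 h past the threshold. None of the 4 was called at 6 h, and the 6 h minus 1.5 h difference of effects, which ran from -0.32 for BHLHE40 to -0.54 for JUN, was not called for any of them either. By 24 h the effect was lower than at 1.5 h for BHLHE40 (-0.56 ± 0.13), KLF2 (-0.49 ± 0.13), ID1 (-0.48 ± 0.07), EIF5 (-0.49 ± 0.09), GDF15 (-0.41 ± 0.12) and GADD45B (-1.03 ± 0.11). GADD45B was at 9.47, 9.42 and 9.29 in compound 16 arrays at 24 h, against 10.05, 9.78 and 9.93 in DMSO arrays, an effect of -0.53 ± 0.08. FAM98A, lower with compound 16 at 1.5 h and at 6 h (-0.50 ± 0.05), differed by 0.05 ± 0.05 at 24 h, and its effect was higher than at 1.5 h by 0.31 ± 0.07.

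**Figure D5:**
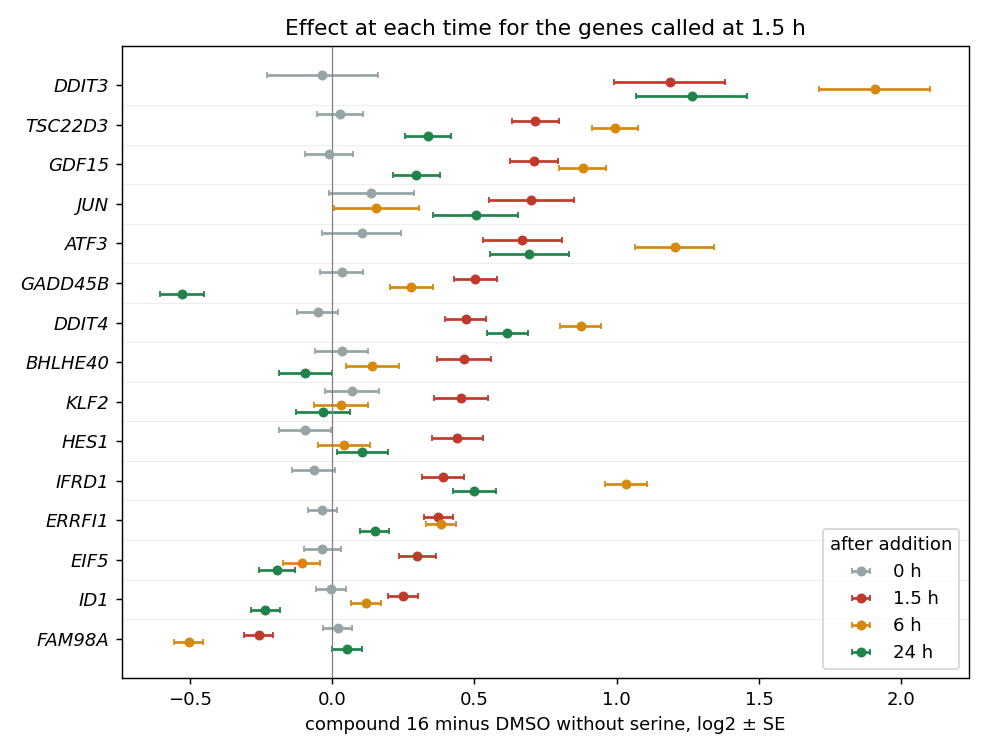
Effect of compound 16 without serine (compound 16 minus DMSO, log2, with the SE of the limma fit as bars) at 0, 1.5, 6 and 24 h on the 15 genes called at 1.5 h. Effects at 0 h lie between -0.09 and 0.14, those on DDIT3, TSC22D3, GDF15, DDIT4, ATF3 and IFRD1 are highest at 6 h, and those on HES1, KLF2, BHLHE40 and JUN lie near 0 at 6 h.

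Over all genes the effect differed between 6 h and 1.5 h in 112 (0.614%), 76 higher and 36 lower at 6 h, and between 24 h and 1.5 h in 650 (3.56%), 271 higher and 379 lower at 24 h. These tests share the 1.5 h arrays. None of the 5 called genes with the largest difference in each direction, at either time, was among the 15. TRIB3, at 0.33 ± 0.07 at 1.5 h, had an effect of 1.85 at 6 h, a difference of 1.52 ± 0.10. NIBAN1, a stress-induced protein, was at -0.15 ± 0.16 at 1.5 h and had effects of 1.60 at 6 h and 3.35 at 24 h, and PCK2, the mitochondrial PEP carboxykinase, was at 0.05 ± 0.09 at 1.5 h and 1.31 at 6 h. In the amino acid response list, 4 of 22 genes had risen at 1.5 h, 21 at 6 h and 21 at 24 h, with medians of 0.25, 0.88 and 0.94. Of all genes, 0.0768% had risen at 1.5 h, 1.49% at 6 h and 2.97% at 24 h. For 12 of the 22 the effect was larger at 6 h than at 1.5 h past the threshold, against 0.417% of all genes.

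The serine enzymes followed later. PHGDH differed by 0.02 at 1.5 h, 0.63 at 6 h and 1.60 at 24 h, PSAT1 by -0.05, 0.60 and 1.32, and PSPH by 0.02, 0.55 and 0.51. For all 3 the effect at 6 h was larger than at 1.5 h, by 0.61 ± 0.11, 0.65 ± 0.11 and 0.53 ± 0.09 (limma adjusted p = 0.00209, 0.000875 and 0.000281). The aminoacyl-tRNA synthetases had 0 of 19 called at 1.5 h, 11 at 6 h and 12 at 24 h, all of them higher with compound 16, beside the same 0.0768%, 1.49% and 2.97% of all genes. ATF4 mRNA differed by 0.13 at 1.5 h, 0.27 at 6 h and 0.74 at 24 h.

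In some other lists members were lower with compound 16 at later times. Of 24 immediate early genes, the effect at 24 h was lower than at 1.5 h in 6, against 2.08% of all genes, and higher in 0. NR4A1, an orphan nuclear receptor of this class, had 11.83, 11.56 and 11.78 in compound 16 arrays at 1.5 h and 11.49, 11.54 and 11.51 in DMSO arrays, a difference of 0.21 ± 0.10, while its effect at 24 h was -1.31. Cholesterol synthesis had 0 of 16 called at 1.5 h with a median of 0.01, against 8 lower at 6 h and 15 lower at 24 h; of all genes 0.00548% were called lower at 1.5 h, 1.23% at 6 h and 4.08% at 24 h. INSIG1, which holds back SREBP and is itself an SREBP target, differed by 0.00 ± 0.08 at 1.5 h, with overlapping arrays, and by -1.13 at 6 h. The heat shock genes, at a median of -0.09 with 0 of 14 called at 1.5 h, had 9 lower at 6 h with a median of -0.33. At 24 h 2 of them were higher and 2 lower, with a median of -0.01, so the lower levels of 6 h were not seen across the list at 24 h.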

How the data were processed

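Total RNA of A549 cells, extracted with Trizol and labelled with biotin, was measured on HG-U219 arrays. The authors deposited 1 table of log2 signals for 49386 probe sets on 50 arrays, made with RMA. The submitters' processing notes name RMA and limma; which version or setting was used is not given in the sources used here. RMA compresses changes of dim probe sets and removes a shift shared by all genes. The deposited log2 values were used with no further normalization or filter, and no detection value was used. By the platform annotation 45253 probe sets name 1 gene, 1327 several and 2713 none, and 93 are controls; only the first were tested. For the 11822 of 18239 genes with several probe sets, that with the highest mean over all arrays was used. Signals ran from 3.36 to 14.6, array medians from 5.40 to 5.54, no arrays were identical, and the number of arrays limits the precision.

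Group means of 17 groups were fitted with limma 3.58.1 in R 4.3.3 with eBayes (33 residual and 3.70 prior degrees of freedom). The median SE was 0.122 for the effect at 1.5 h, 0.183 for its difference between media and 0.173 for differences between times. The calculation was tested on simulated data. Exact tests used scipy 1.17.1. The members, gene lists and alternatives were chosen with earlier results of these data known. Named genes were all called ones, the 4 marker genes DDIT3, GDF15, TSC22D3 and DDIT4, a fixed set (ATF4, PKM, PHGDH, PSAT1, PSPH, SHMT2, MTHFD2, ASNS, TXNIP), the 10 uncalled genes a direction with separate arrays and the smallest p, the 5 largest differences a direction at 6 h and 24 h, and for each list its called members and the 2 with the smallest p. Alternatives changed the arrays in the fit, the filter on dim genes, the normalization, array weights, the prior and the choice of probe set, or left out 1 array.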

Additional observations from a re-analysis of the deposited data

Results flagged for a closer look

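The effect of compound 16 differed between media at 1.5 h, without minus with serine, by 0.77 for TSC22D3, 0.76 for GDF15 and 0.57 for DDIT4, past the threshold of the limma test of the difference. These values rest on the 2 DMSO arrays with serine, and leaving out either of them left 1 call.

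The effect without serine differed between 1.5 h and 0 h, by 0.72 for GDF15, 0.69 for TSC22D3, 0.52 for DDIT4 and 0.41 for ERRFI1. The test of the 6 h effect minus the 1.5 h effect called 112 genes. Of the early genes, these included IFRD1 at 0.64 and DDIT4 at 0.40, with EIF5 at -0.41. The 24 h effect minus the 1.5 h effect called 650 genes. Among them were FAM98A at 0.31, GDF15 at -0.41, ID1 at -0.48, KLF2 at -0.49, EIF5 at -0.49, BHLHE40 at -0.56 and GADD45B at -1.03. No array of a group could be tested as standing apart, since no group holds more than 3 arrays.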

How the results depend on the processing

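The direction of the 15 called genes at 1.5 h without serine was the same in each of the 15 other settings run for this comparison. DDIT3, DDIT4, ERRFI1, GDF15 and TSC22D3 stayed called in 13 of these settings and GADD45B in 12, but EIF5 in 3, ID1 in 4, FAM98A and HES1 in 5, JUN in 6, ATF3 and KLF2 in 7, and BHLHE40 and IFRD1 in 8. All 15 calls rest on a spread shared with the other arrays, and why single settings lost calls was not tested. With only the arrays of the comparison in the fit, the 15 calls became 0, as did the 3 calls for the difference between media (1062 at an unadjusted p under 0.05, smallest adjusted p 0.273) and the 4 for 1.5 h minus 0 h (1049, smallest adjusted p 0.454), while the 112 for 6 h minus 1.5 h became 57 and the 650 for 24 h minus 1.5 h became 338. The next 2 settings were added after seeing the data: the 11 arrays at 1.5 h gave 0 calls for the effect (1129 at an unadjusted p under 0.05, smallest adjusted p 0.063) and 0 for the difference between media, and the 24 arrays without serine gave 8 for the effect and 2 for 1.5 h minus 0 h. Fewer arrays leave fewer degrees of freedom by construction. The difference between media had 7 calls with the dimmest 40% of genes left out, 8 with arrays centred on their medians, 13 with array weights and 8 with a trended robust prior, each including the 3. For 1.5 h minus 0 h, centring gave 7 and the mean of all probe sets 8, each including the 4. The cause of these shifts was not tested. Leaving out 1 array at a time gave 6 to 8 calls for the effect, 1 to 4 for the difference between media, 0 to 9 for 1.5 h minus 0 h, 83 to 98 for 6 h minus 1.5 h and 516 to 575 for 24 h minus 1.5 h. Centring turned the split of the 6 h minus 1.5 h calls to 56 higher and 41 lower. No paired analysis was possible because the groups share no replicate numbers.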

Other observations

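Several genes with large effects of compound 16 at 24 h without serine were not called at 1.5 h. CBS, which condenses serine with homocysteine, had 9.18, 9.39 and 9.36 in compound 16 arrays at 1.5 h and 9.20, 9.34 and 9.36 in DMSO arrays, a difference of 0.01 ± 0.08, and an effect of 2.08 at 24 h. BCAT1, the cytosolic branched-chain transaminase, differed by -0.36 ± 0.17 at 1.5 h and by 2.33 at 24 h. NUPR1, a small stress-induced chromatin protein, had 9.06, 8.60 and 8.85 in compound 16 arrays at 1.5 h and 8.65, 8.22 and 8.47 in DMSO arrays, with overlapping arrays and a difference of 0.39 ± 0.12 (limma adjusted p = 0.744, n = 3 each). Its effect at 24 h was 2.30.

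Among genes whose effect was lower at 24 h than at 1.5 h, FGFBP1, a carrier that releases fibroblast growth factors, differed by -0.04 ± 0.15 at 1.5 h and by -2.12 at 24 h. ALDOC, a brain-enriched aldolase, differed by 0.29 ± 0.16 at 1.5 h and by -1.19 at 24 h, and CXCL3, a neutrophil chemokine, by 0.33 ± 0.18 at 1.5 h and by -1.08 at 24 h. LYZ, the leukocyte marker lysozyme, was not called for the difference between 24 h and 1.5 h. It had 5.57, 5.76 and 5.49 in compound 16 arrays at 1.5 h and 6.02, 6.50 and 5.92 in DMSO arrays, a difference of -0.54 ± 0.23 with a limma adjusted p of 1.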
